A study of Homo sapiens with 4 samples.

Results

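Human chromosome 19 carries the largest collection of zinc finger genes in the genome, and H3K27ac peaks at these genes were examined in K562, an established erythroleukaemia line from a patient with chronic myeloid leukaemia. H3K27ac is acetylation of lysine 27 on histone H3, a mark of active promoters and enhancers. The genes were all protein-coding genes of chromosome 19 whose RefSeq symbol is ZNF followed by a number, 250 of 20033 protein-coding genes placed on hg38. Of these, 4 had a hyphen in the symbol (ZNF559-ZNF177, ZNF816-ZNF321P, ZNF765-ZNF761 and ZNF470-DT) and share a locus with another member. The treated group was 1 H3K27ac library from cells kept for 18 h in 1 uM daunorubicin, an anthracycline drug that slips between DNA bases and traps topoisomerase II. Its reference was 1 H3K27ac library from untreated cells, and each condition had 1 input library made without an antibody. Every difference below compares 1 library with 1 library of a single cell line, so there was no replicate check and no p-value.

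Most ZNF genes of chromosome 19 encode a KRAB domain followed by a row of zinc fingers. The fingers read DNA, very often that of transposable elements, and the KRAB domain binds TRIM28, a scaffold that brings in the H3K9 methyltransferase SETDB1 and heterochromatin proteins. The genes arose by repeated tandem duplication and lie in clusters. In many cell types, K562 among them, their last exons are known as sites of the repressive mark H3K9me3, which one of the family, ZNF274, helps to place there.

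Peaks were set against each gene in 3 places. An end was marked if a peak lay within 1 kb of either annotated end, a gene-body peak overlapped the gene elsewhere, and the marked length was the part of the gene, with 1 kb on either side, that lay under peaks, in bp. With daunorubicin an end was marked at 180 of the 250 genes (72%, 95% Wilson interval 66.1 to 77.2), beside 62.5% of all protein-coding genes. Without it an end was marked at 167 (66.8%, 60.7 to 72.3), beside 58.4% of all. ZNF genes of other chromosomes had higher shares, 79% (73.7 to 83.5) with daunorubicin and 76.8% (71.4 to 81.4) without it. On chromosome 19 the same 167 ZNF genes were marked in both libraries. A further 13 were marked only with daunorubicin, none was marked only in untreated cells, and 70 were marked in neither. Of all protein-coding genes, 4.91% had an end marked only with daunorubicin and 0.749% only in untreated cells, so the ZNF share of 5.2% (3.06 to 8.69) was close to the background in the first direction. The count of 0 in the second had an interval of 0 to 1.51%.

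Orientation could be read for 219 of the genes, those with a start in the RefSeq promoter table. Their marked ends were nearly all starts. A peak lay within 1 kb of the start at 162 genes with daunorubicin (74%, 67.8 to 79.3) and at 150 without it (68.5%, 62.1 to 74.3), against 62.3% and 59% of 15842 protein-coding genes. At ZNF genes of other chromosomes the start shares were 79.8% and 78.4%. The far end, where transcription stops, had a peak at 11 of the 219 genes in each library (5.02%, 2.83 to 8.77). Over all genes the far-end share was 10.8% with daunorubicin and 8.19% without it. Among the other protein-coding genes of chromosome 19 the far-end share was 18.4% (16.1 to 21) with daunorubicin and 17% (14.7 to 19.5) without it. The ZNF intervals lay below both of these. ZNF genes of other chromosomes had 6.42% (3.86 to 10.5) and 5.5% (3.18 to 9.37), intervals that overlapped those of chromosome 19.

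Some of the far-end peaks lay beside an annotated start. Of the 12 far-end peaks with daunorubicin, 7 lay within 1 kb of a listed start of any gene, one of them beside a start of the same gene (ZNF580), and so did 6 of the 11 without it. For other protein-coding genes these counts were 698 of 1735 and 627 of 1255. ZNF766 was one of the genes with a far-end peak away from any listed start. The same peak covered an annotated end of its neighbour ZNF480, a member with no listed start. That peak had a score of 149 with daunorubicin (52296615 to 52297999) and 257 without it (52296571 to 52297889). The score is the value the authors' peak caller gave each peak, and it ranks peaks within 1 list only.

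**Figure D1:**
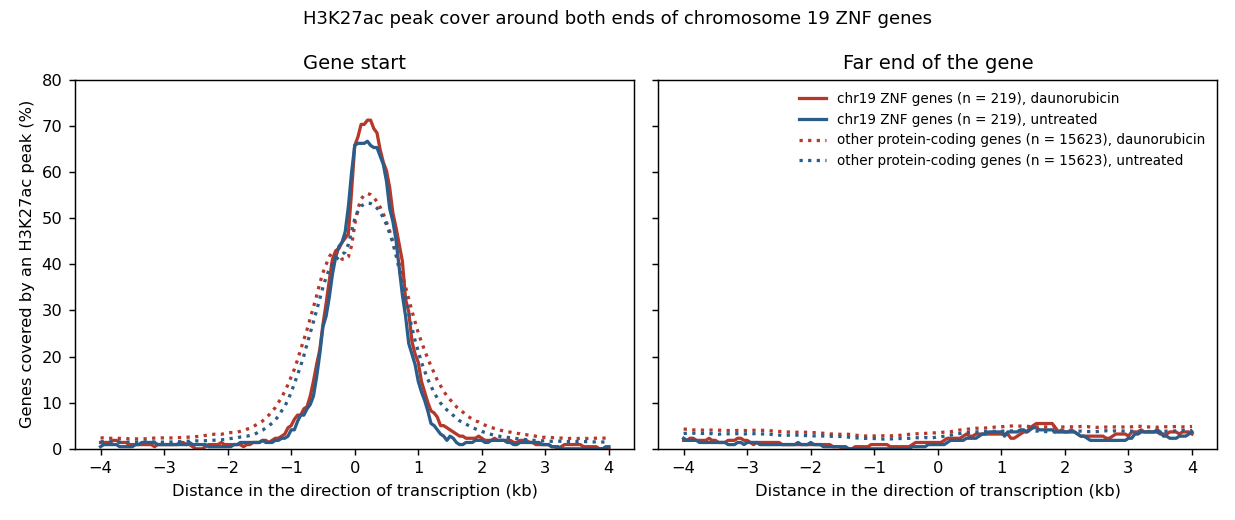
Share of genes covered by an H3K27ac peak at each distance from the gene start (left) and from the far end (right), in kb in the direction of transcription, for 219 chromosome 19 ZNF genes (solid) and 15623 other protein-coding genes (dotted), with daunorubicin (red) and untreated (blue). At ZNF genes the cover reaches 71.2% with daunorubicin and 66.7% without it at 200 bp past the start, and stays at or below 5.48% around the far end.

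Cover at the starts of ZNF genes was shifted into the gene. At 200 bp past the start it reached 71.2% of the ZNF genes with daunorubicin and 66.7% without it, against 55.3% and 53.3% of the other protein-coding genes. At 500 bp past the start 60.3% of ZNF genes were covered with daunorubicin and 57.99% without it, but at 500 bp before the start only 26.9% and 26.5%. The other genes had 49.1% and 48.6% past the start, and 38.2% and 35.03% before it. The peaks were also narrower, with a median width of 1076.5 bp for the 166 start peaks with daunorubicin and 1094 bp for the 149 without it, against 1291 bp and 1394 bp at other starts. They were not weak peaks. Their median score was 156 with daunorubicin, at the 90.2nd percentile of that list, and 187 without it, at the 83.8th percentile of the untreated list. Start peaks of other genes stood at percentile 85.7 with daunorubicin and at 83.8 without it.

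Gene bodies were sparsely marked. A gene-body peak was present at 55 ZNF genes with daunorubicin (22%, 17.3 to 27.5) and at 46 without it (18.4%, 14.1 to 23.7), against 41.8% and 31.2% of all protein-coding genes. The median gene length was 23254.5 bp for ZNF genes and 24130 bp for all, but the mean body between the end windows was 27.4 kb for ZNF genes and 66.9 kb for all, so that long genes give the background more room for a peak. The other genes of chromosome 19 had shorter bodies, 20.4 kb on average, and a gene-body peak at 35.6% with daunorubicin and 29.1% without it. Per length of gene body away from the end windows, peaks covered 11.7 bp per kb of ZNF gene with daunorubicin and 9.21 bp per kb without it. Over all protein-coding genes the values were 20.6 and 11.4 bp per kb, and over the other genes of chromosome 19 they were 33.3 and 26.9 bp per kb. Many gene-body peaks marked a start inside the annotated span. Of 79 such peaks with daunorubicin 39 lay within 1 kb of a listed start of some gene, as did 34 of 60 without it. Counting every listed start, 182 of the 219 genes had a marked start of their own with daunorubicin and 169 without it. ZNF558, known for its regulation of the mitochondrial quality gene SPATA18, had no marked end in either library. It nevertheless had a strong peak over a listed start inside the span, with a score of 282 with daunorubicin (8831554 to 8832909) and 508 without it (8831701 to 8832867). ZNF331, an imprinted gene, likewise had its peak over an inner start, with a score of 66 with daunorubicin and 24 without it.

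A gap of over 1 Mb between neighbours was taken to separate clusters. This gave 9 clusters with at least 5 genes, which held 239 of the 250 genes, and 7 small groups with the other 11. Numbered along the chromosome, the largest were cluster 9 at the end of the long arm (ZNF628 to ZNF446, 55476617 to 58489533, 60 genes) and cluster 8 (ZNF175 to ZNF331, 51571283 to 53580269, 41 genes). Cluster 4 (ZNF101 to ZNF254, 19668153 to 24129968) held 37 genes, ZNF91 among them, spread over 4462 kb next to the centromere.

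The share of marked genes varied between the clusters, within intervals that overlapped. Without daunorubicin an end was marked at 47 of 60 genes in cluster 9, 31 of 41 in cluster 8, 12 of 16 in cluster 2, 17 of 25 in cluster 3 and all 5 of cluster 1. It was marked at only 20 of 37 in cluster 4, 12 of 24 in cluster 7, 14 of 26 in cluster 6 and 2 of 5 in cluster 5. With daunorubicin cluster 4 had 26 marked genes, 70.3% (54.2 to 82.5) against 54.1% (38.4 to 69) without it. Cluster 7 had 16, 66.7% (46.7 to 82) against 50% (31.4 to 68.6). Clusters 2, 6 and 9 had 1 more marked gene each with daunorubicin, and clusters 1, 3, 5 and 8 and the small groups had the same number in both libraries. All of these intervals overlapped between the libraries, and within each library the intervals of the clusters overlapped one another. The same genes were scored in both libraries, so the overlap between libraries does not measure their difference. Gene by gene, 6 in cluster 4 and 4 in cluster 7 were marked only with daunorubicin and none only without it. This difference was not tested. Of the 29 genes of cluster 4 with a listed start, the start was marked at 25 with daunorubicin and 19 without it. Over all ZNF genes with a listed start the counts were 162 and 150 of 219.

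**Figure D2:**
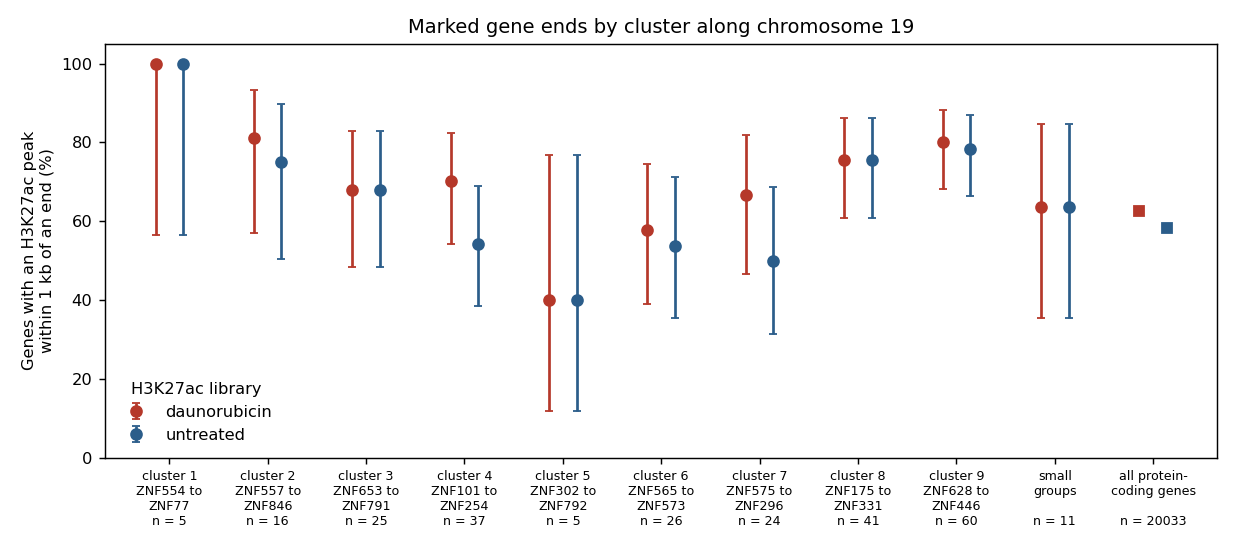
Share of genes with an H3K27ac peak within 1 kb of an end in each of the 9 clusters, in the 11 genes outside them and in all protein-coding genes, with daunorubicin (red, left) and untreated (blue, right); bars are 95% Wilson intervals, which cover counting error only. The libraries stand furthest apart in cluster 4 (70.3% and 54.1%) and cluster 7 (66.7% and 50%).

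Clusters 4 and 7 thus held 10 of the 13 genes marked only with daunorubicin. In cluster 4 these were ZNF90, ZNF486, ZNF737, ZNF85, ZNF257 and ZNF492, and each had no base pair marked in the untreated library. ZNF737 had the highest score of the 6, 60 (20565203 to 20565822, 620 bp). ZNF85 had a peak of score 52 (20923235 to 20923841, 607 bp), and ZNF486 and ZNF257 had peaks of score 34 each (20167236 to 20167780 and 22052485 to 22053069). ZNF90 had the widest, 748 bp at a score of 30, and ZNF492 the narrowest, 234 bp at a score of 20. The nearest untreated peak was 94992 bp away at ZNF737, 96729 bp at ZNF85 and further at the other 4, up to 440891 bp at ZNF492. Against a median score of 41 in the daunorubicin list, ZNF737 and ZNF85 were above it and the other 4 below.

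In cluster 7 the genes marked only with daunorubicin were ZNF222, ZNF223, ZNF284 and ZNF229, the first 3 of them close neighbours. ZNF222 had the highest score of all 13, 66 (44024936 to 44025759, 824 bp), with ZNF223 at 40, ZNF284 at 39 and ZNF229 at 36. The remaining genes were ZNF793 in cluster 6 (score 32, 636 bp), ZNF587B in cluster 9 (score 14, 249 bp) and ZNF358 in cluster 2 (score 22, 208 bp). ZNF358 had an inner peak in both libraries and a slightly shorter marked length with daunorubicin, 889 bp against 1015 bp in untreated cells. With the 38626 highest-scoring peaks taken from each list, which removes the difference in list length, 8 genes were marked only with daunorubicin, and all 8 lay in cluster 4 (ZNF486, ZNF737, ZNF85 and ZNF257) or cluster 7 (ZNF222, ZNF223, ZNF284 and ZNF229). The untreated list stayed whole in this setting, so the 8 could only come from the 13. Their place in these clusters was thus no separate result. In the same setting 2 genes, ZNF556 and ZNF730, were marked only without it. Over all 20033 protein-coding genes the counts were 393 and 510, the opposite order. The ZNF counts, 8 and 2 of 250, were small, and their order was not tested. With only peaks of score 43 or more (the untreated median), 10 genes were marked only with daunorubicin, and the reverse held for 2. Across the 20033 protein-coding genes these counts were 648 and 297. Of the 13 named above, ZNF737, ZNF85 and ZNF222 were among the 10. The rest of the 10 had an untreated end peak in the full list, with scores from 38 (ZNF491) to 41 (ZNF93 and ZNF577), under the cut. The 2 reverse genes likewise had daunorubicin end peaks under the cut, of score 32 and 42.

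The promoters of 3 of the cluster 4 genes and of ZNF222, all marked only with daunorubicin, are shown beside those of ZNF91, which was marked in both libraries, and ZNF43, which had no peak in either. Each is the RefSeq sequence of GRCh38.p14 from 250 bases before the start to 50 bases after it, read 5′ to 3′ on the strand of the gene, and capitals mark the words CCAATCAG and CTGTCACTCAGG. ZNF486 lies at chr19:20166964-20167263 (plus strand), ZNF85 at chr19:20923001-20923300 (plus), ZNF257 at chr19:22052234-22052533 (plus), ZNF222 at chr19:44025129-44025428 (plus), ZNF91 at chr19:23395422-23395721 (minus) and ZNF43 at chr19:21836133-21836432 (minus).
ZNF486: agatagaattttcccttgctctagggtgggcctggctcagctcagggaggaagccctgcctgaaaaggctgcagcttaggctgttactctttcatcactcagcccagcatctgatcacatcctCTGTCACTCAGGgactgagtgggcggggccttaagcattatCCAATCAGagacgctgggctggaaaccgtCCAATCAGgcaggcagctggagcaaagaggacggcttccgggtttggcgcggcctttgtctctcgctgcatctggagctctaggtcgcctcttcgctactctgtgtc
ZNF85: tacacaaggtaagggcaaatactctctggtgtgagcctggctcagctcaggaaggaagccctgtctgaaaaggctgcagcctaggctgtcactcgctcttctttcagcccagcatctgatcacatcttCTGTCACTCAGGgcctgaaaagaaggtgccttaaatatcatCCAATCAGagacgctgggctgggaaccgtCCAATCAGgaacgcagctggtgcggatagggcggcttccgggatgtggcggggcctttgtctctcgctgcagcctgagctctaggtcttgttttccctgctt
ZNF257: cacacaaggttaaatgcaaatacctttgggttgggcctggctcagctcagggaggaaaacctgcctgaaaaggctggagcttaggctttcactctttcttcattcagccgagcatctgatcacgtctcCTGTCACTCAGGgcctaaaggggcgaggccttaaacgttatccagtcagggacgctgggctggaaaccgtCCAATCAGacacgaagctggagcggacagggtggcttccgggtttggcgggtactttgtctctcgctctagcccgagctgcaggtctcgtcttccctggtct
ZNF222: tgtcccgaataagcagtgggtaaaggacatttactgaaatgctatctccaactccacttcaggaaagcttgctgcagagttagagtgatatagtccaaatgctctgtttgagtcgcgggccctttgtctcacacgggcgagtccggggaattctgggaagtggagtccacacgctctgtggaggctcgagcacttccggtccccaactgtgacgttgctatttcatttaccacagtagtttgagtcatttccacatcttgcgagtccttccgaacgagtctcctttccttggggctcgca
ZNF91: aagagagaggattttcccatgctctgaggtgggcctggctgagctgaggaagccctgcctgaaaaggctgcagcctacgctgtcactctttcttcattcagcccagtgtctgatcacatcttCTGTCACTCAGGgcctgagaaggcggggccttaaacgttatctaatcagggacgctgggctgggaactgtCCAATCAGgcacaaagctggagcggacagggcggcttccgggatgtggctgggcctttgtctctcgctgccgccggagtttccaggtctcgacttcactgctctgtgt
ZNF43: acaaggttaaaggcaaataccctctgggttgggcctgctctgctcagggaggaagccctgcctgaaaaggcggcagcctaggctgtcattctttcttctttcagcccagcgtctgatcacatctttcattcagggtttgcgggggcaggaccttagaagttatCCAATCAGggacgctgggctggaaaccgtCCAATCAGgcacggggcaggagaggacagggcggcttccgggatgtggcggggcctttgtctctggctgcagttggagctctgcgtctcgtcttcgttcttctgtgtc

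The 5 sequences from cluster 4 are visibly copies of one another, whereas that of ZNF222 is not. CCAATCAG contains the CCAAT box, the binding site of the factor NF-Y. It stands in 2 copies in the promoters of ZNF486, ZNF85 and ZNF43 and in 1 copy in those of ZNF257 and ZNF91. Searched on both strands, CCAATCAG was present in 57 of 219 ZNF promoters (26%) and in 5.21% of all 15842 promoters of the same length. It was in all 29 promoters of cluster 4, 21 of 24 in cluster 3 and 4 of 5 in cluster 1, but in none of 55 in cluster 9 and none of 25 in cluster 6. Its median place was 68.5 bases before the start. The shorter CCAAT alone was in 53.9% of ZNF promoters and 36.4% of all. CTGTCACTCAGG was the commonest word of 12 bases among the ZNF promoters. It was present in 23 of them, 18 in cluster 4 and 5 in cluster 3. Of all promoters 0.189% had it, these 23 included, and of the 15623 others 7 did. These words were picked after the sequences had been seen.

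Both words were found in genes with a marked end and in genes without one. Marking here was read at the annotated ends, while the promoter searched was that of a listed start, which can lie inside the gene. ZNF723, of cluster 4 and marked in neither, had a daunorubicin peak 199 bp from its listed start, 20073 bp from the annotated one. ZNF442, ZNF563 and ZNF799, also marked in neither, had peaks over an inner listed start. The promoters of genes marked in neither were thus not all free of peaks. CCAATCAG was present in 39 of 151 promoters of genes marked in both libraries, in 6 of 12 marked only with daunorubicin and in 12 of 56 marked in neither. The 6 of 12 were the 6 genes of cluster 4, where every listed promoter had CCAATCAG. CTGTCACTCAGG was present in 14 of the 151, in 6 of the 12 and in 3 of the 56. It was in 18 of the 29 promoters of cluster 4. ZNF43, ZNF208 and ZNF682 had no peak at all although their promoters belonged to the same cluster. Of the 219 ZNF promoters, 74 shared at least 20 words of 12 bases with their most alike ZNF promoter, which lay in the same cluster in each case, and 26 of the 29 promoters of cluster 4 did so. Reads from such copies can be hard to place. How the authors' alignment treated them was not given in the sources used here, and their part in the marking of cluster 4 was not tested.

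Genes in the lowest tertile of promoter CpG dinucleotides were poorly marked in general, but the ZNF genes in that tertile were not. The observed number of CpG over that expected from the C and G content was computed for each promoter and split at the tertiles of all genes, 0.58 and 0.864. In the lowest tertile the start was marked at 36 of 47 ZNF genes with daunorubicin (76.6%, 62.8 to 86.4) and at 30 without it (63.8%, 49.5 to 76). Of the genes with no ZNF symbol in that tertile, 26% (24.8 to 27.2) were marked with daunorubicin and 22% (20.9 to 23.2) without it. In the highest tertile 78.6% (66.2 to 87.3) of ZNF starts were marked with daunorubicin and 75% (62.3 to 84.5) without it, against 86% and 83.5%, which lay within the ZNF intervals. Cluster 4 supplied 24 of the 47 low-CpG genes, 20 of them marked with daunorubicin and 15 without it. The other 23 had 16 marked with daunorubicin and 15 without it, so the high share was also seen outside that cluster. The cluster 4 promoters had a median CpG ratio of 0.438, against 0.761 over all ZNF genes and 0.761 over all protein-coding genes. Their quartiles were 0.414 and 0.549, while the lower quartile over all protein-coding genes was 0.395. Within the lowest tertile, ZNF genes and the others were thus not matched for this ratio. How far this bears on their marked shares was not tested.

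**Figure D3:**
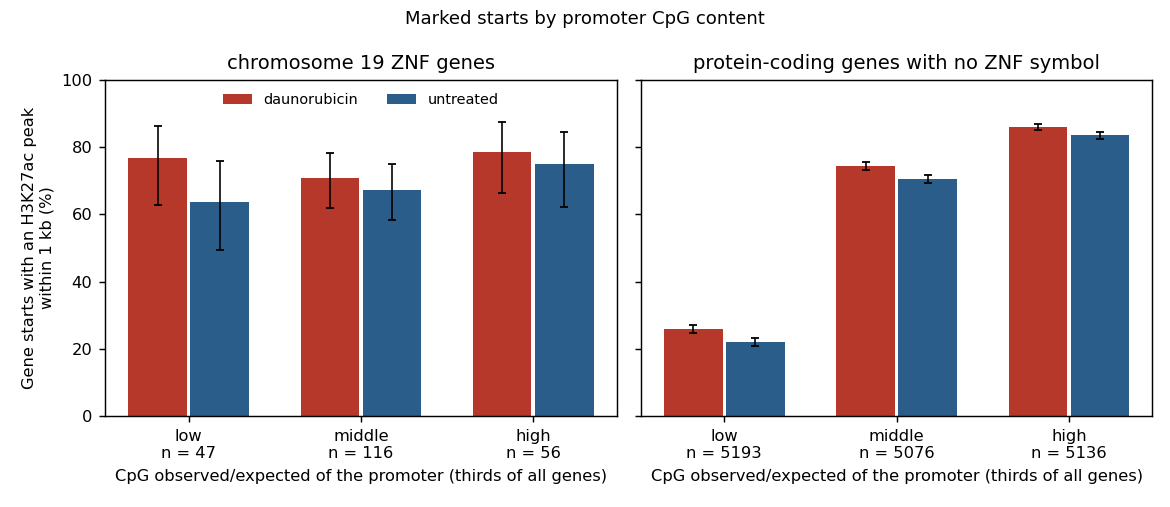
Share of gene starts with an H3K27ac peak within 1 kb, by the promoter's observed over expected CpG (low, middle and high tertiles of all genes), for 219 chromosome 19 ZNF genes (left) and protein-coding genes with no ZNF symbol (right), with daunorubicin (red) and untreated (blue); error bars are 95% Wilson intervals. In the low tertile 76.6% and 63.8% of ZNF starts are marked, against 26% and 22% of the others.

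Marked length differed in both directions. It was longer with daunorubicin at 136 genes (54.4%, beside 54.8% of all protein-coding genes), shorter at 67 (26.8%, beside 18.2% of all) and equal at 47, none of which had a peak. Among genes with a peak it was longer at 136 of 203 ZNF genes and at 10986 of 14646 protein-coding genes. The median differences of these genes were 84 bp and 337 bp. Over all 250 ZNF genes the median marked length was 1097 bp with daunorubicin and 1006.5 bp in untreated cells. Their median difference per gene was 17.5 bp (95% interval 0 to 61), beside 79 bp over all protein-coding genes. Regardless of sign the median difference was 125.5 bp, beside 232 bp over all, and 140 of the 250 genes (56%) differed by more than 100 bp, beside 61.3% of all. Summed over the genes, the ratio of daunorubicin to untreated was 1.12 for ZNF genes, 1.096 for the other genes of chromosome 19, 1.25 for ZNF genes of other chromosomes and 1.42 for all protein-coding genes. Chromosome 19 as a whole held 4.07% of the daunorubicin peaks and 5.09% of the untreated ones, so the small ratio was shared with the rest of the chromosome.

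Wider or added gene-body peaks took part in each of the 5 largest gains. ZNF577 had 2599 bp with daunorubicin and 934 bp in untreated cells, the largest difference, at 1665 bp. Its start peak was 1004 bp wide with a score of 94 with daunorubicin and 560 bp wide with a score of 41 without it, an inner peak was 1173 bp wide against 374 bp, and a far-end peak of 422 bp was called only with daunorubicin. The read-through gene ZNF816-ZNF321P had 5575 bp against 4411 bp, the longest marking of any member in the daunorubicin library, and one of its inner peaks was 2403 bp wide against 1220 bp. ZNF440 had 2463 bp against 1306 bp, with 2 added peaks of score 32 and 19 inside the gene. ZNF320, whose strongest peak lay over an inner listed start and was 1482 bp wide against 933 bp, had 2509 bp against 1481 bp, and ZNF541 had 1803 bp against 907 bp. The start peak of ZNF440 itself was of like width, 1469 bp with daunorubicin and 1306 bp without it.

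Among the 5 largest losses, 4 came from narrower peaks at starts that stayed marked. ZNF175 had 1212 bp with daunorubicin and 2065 bp in untreated cells, in 1 start peak each, with scores of 97 and 51. ZNF254 had 2123 bp against 2700 bp. The exception was ZNF611, with 2972 bp against 3667 bp, whose start peak was 1308 bp wide against 1182 bp and whose loss lay inside the gene. At ZNF576 a single untreated peak of 2490 bp stood against 2 daunorubicin peaks of 1127 bp and 701 bp, and the marked length was 1353 bp against 2013 bp. ZNF491 had 567 bp against 1094 bp.

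**Figure D4:**
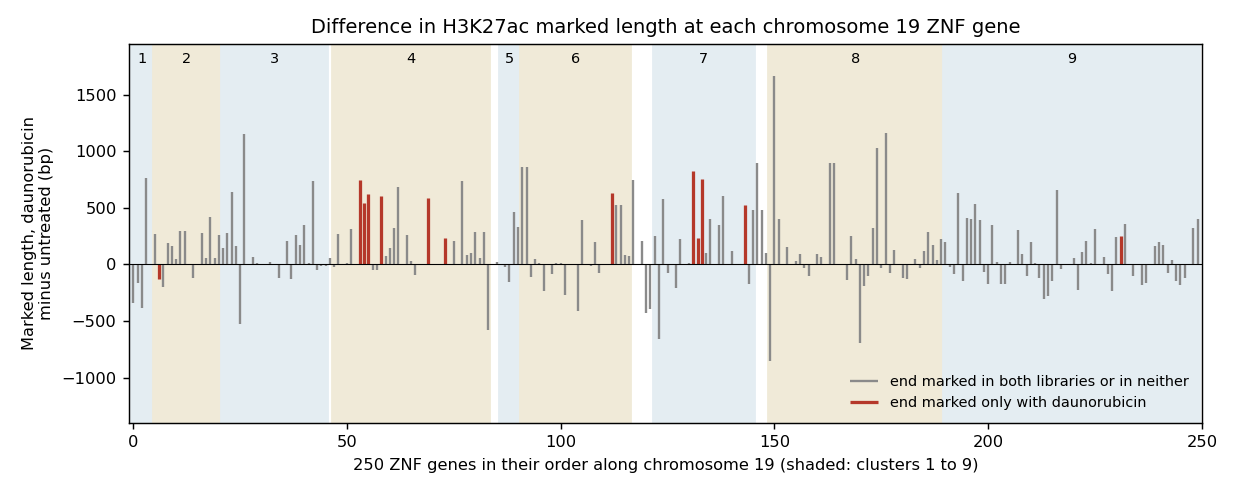
Marked length with daunorubicin minus untreated, in bp, at each of the 250 ZNF genes in their order along chromosome 19, with the 9 clusters shaded and numbered; red lines are the 13 genes whose ends were marked only with daunorubicin. Values run from -853 bp at ZNF175 to 1665 bp at ZNF577, and 6 and 4 of the red lines fall in clusters 4 and 7.

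Members best known for silencing transposable elements were mostly marked in both libraries. ZNF91, which represses SVA elements, had a start peak of 1084 bp and score 127 with daunorubicin, and of 984 bp and score 121 without it. ZNF93, which represses LINE-1 elements of the L1PA families, had 1400 bp against 1085 bp. ZNF417 and ZNF587, a pair of close paralogues that act on HERVK, had 565 bp against 666 bp and 1535 bp against 1175 bp. ZNF808, a gene needed for pancreas development, had 1585 bp against 1723 bp. ZNF534, which binds HERVH, had no peak in either library, and ZNF43 and ZNF208 had none either.

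Other members with a known role were also marked in both. ZNF274 had one of the stronger start peaks, 1829 bp at a score of 408 with daunorubicin and 1632 bp at a score of 396 without it. ZNF224, a KRAB repressor that works with WT1, had 1498 bp against 1393 bp, and ZNF382, described as a tumour suppressor, 1168 bp against 1405 bp. ZNF649 had 1152 bp against 746 bp, ZNF180 1034 bp against 1211 bp, ZNF460 1815 bp against 1918 bp and ZNF57 2921 bp against 2154 bp. The highest scores at any ZNF end were 530 at ZNF101, 520 at ZNF766 and 478 at ZNF627 with daunorubicin, and 524 at ZNF562, 504 at ZNF766 and 496 at ZNF627 without it. In cluster 1 the longest marking was that of ZNF57, in cluster 2 that of ZNF846 (3460 bp against 3201 bp) and in cluster 3 that of ZNF564 (4137 bp against 4185 bp). ZNF431 led in cluster 4 (2643 bp against 2322 bp), ZNF792 in cluster 5 (2151 bp against 1821 bp) and ZNF529 in cluster 6 (2890 bp against 2879 bp). ZNF428 led in cluster 7 (3219 bp against 2642 bp) and ZNF581 in cluster 9 (3601 bp against 3189 bp).

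Merging overlapping peaks of both lists gave 265 regions over the ZNF genes and 1 kb on either side, of which 44 were called only with daunorubicin, 10 only without it and 211 in both. The share called only with daunorubicin was 16.6% (12.6 to 21.6), against 25.2% (23.3 to 27.2) at other genes of chromosome 19 and 40.5% (40.1 to 41) at all protein-coding genes. Within the 78 regions that lay only in gene bodies it was 34.6% (25 to 45.7), against 36.2% (33.2 to 39.2) and 51.8% (51.2 to 52.3). At the 187 regions that touched an end it was 9.09% (5.75 to 14.1), against 13.2% (11.1 to 15.6) and 13.6% (13 to 14.2). The ZNF interval lay below that of all genes in each of the first 2 counts and overlapped it at the ends. Regions called only with daunorubicin were small, 418 bp at the median, and their median score was 24.5. The highest score among them, 92, was inside ZNF507 (32373383 to 32373910).

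The 70 genes with no marked end were spread over clusters 2 to 9, with 12 in cluster 9, 11 each in clusters 4 and 6, 10 in cluster 8, 8 each in clusters 3 and 7, and 3 each in clusters 2 and 5. A further 4 were in the small groups and none in cluster 1. Of the 70, 47 had no peak anywhere, and 10 of the 11 in cluster 4 were of that kind. With an inner peak but no marked end there were 23 genes with daunorubicin and 22 without it. The 31 members without a listed start had a marked end in 17 cases with daunorubicin and in 16 without it.

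The partners of the KRAB domain were marked in both conditions. Of 24 genes for TRIM28, SETDB1, the HUSH complex, HP1 proteins, chromatin remodellers, deacetylases, DNA methylation factors and H3K9 methyltransferases, 23 had a marked end in each library, beside the 62.5% and 58.4% of all protein-coding genes. With daunorubicin 17 of them had a longer and 7 a shorter marked length. All 24 had a peak, and of the 14646 protein-coding genes with a peak 10986 were longer and 3646 shorter. Their median difference was 226.5 bp, beside 337 bp over all protein-coding genes with a peak. TRIM28 itself, which also lies on chromosome 19 just beyond cluster 9, had 1801 bp against 1899 bp. SETDB1 had 1203 bp against 1603 bp. HDAC1, a histone deacetylase gene, had 5133 bp against 2437 bp, CBX5, which encodes HP1 alpha, 6043 bp against 3677 bp, and PPHLN1, of the HUSH complex, 12211 bp against 7727 bp. ATRX, a chromatin remodeller of heterochromatin, had 6240 bp against 4036 bp. DNMT1, the maintenance DNA methyltransferase gene, had 1241 bp against 1655 bp. UHRF1 was the one gene without a marked end, and its gene-body peaks numbered 4 in each library.

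The daunorubicin list had 65118 peaks and the untreated list 38626, and the number of genes called marked can move with the length of a list. Neither input list had a peak on chromosome 19. Of 10 genes known to be active in erythroleukaemia cells, 9 had a marked end in each library, HBE1 being the one without a peak. Of 10 markers of other cell types, 3 had a marked end with daunorubicin (CD3E, ALB and COL1A1) and 2 without it. CD3E had a marked length of 2719 bp in the daunorubicin library, against 320 bp in the untreated one.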

How the data were processed

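Per the submitters' processing notes, the tools were MACS2 2.1.1, Bowtie2 2.3.4.3 and deepTools 3.2.1, and the builds hg19 and hg38 were named. Their settings (peak threshold, use of the inputs, duplicates) were not given in the sources used here. Each of the 4 libraries has 1 peak list, in which the authors deposited a score per peak whose formula is not given, so scores were used only to describe, rank or filter within a list. Read counts were not used, so depth is unknown. The lists carried hg38 sequence names, and genes, starts and promoters came from RefSeq tables of GRCh38.p14. Coordinates count from 1.

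Overlaps of at least 1 bp were computed with Python 3.11.15, pandas 2.3.3 and numpy 2.4.6, and were tested on simulated peaks against bedtools 2.31.1. Orientation was taken from the listed starts. For motifs and CpG, the listed start nearest the annotated 5' end was used. Shares carry 95% Wilson intervals (scipy 1.17.1) and the median an interval from order statistics. Both cover counting error only, and neighbouring members can share a peak.

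Members and lists were chosen with earlier results of these data known. Named genes were those with an end marked in 1 library only, the 5 largest gains and 5 largest losses in marked length, the longest marked member of each cluster, the members with the 3 highest-scoring end peaks per list, 17 members chosen for their known role or length, and the 24 corepressor genes. ZNF558 and ZNF331 are among the 17. ZNF580, ZNF480, ZNF682, ZNF507, ZNF556, ZNF730, ZNF723, ZNF442, ZNF563, ZNF799, CD3E and HBE1 were named after their values were seen.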

Additional observations from a re-analysis of the deposited data

How the results depend on the processing

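Of 62 values recomputed under 9 alternatives, 52 stayed within 1.5 times the reported count (or, for the median, within its interval), 10 moved further and none reversed. Removing peaks on input peaks could change nothing, since neither input list had a peak on chromosome 19, and is not counted. Ends marked only with daunorubicin, 13 in the full lists, numbered 8 with equal numbers of highest-scoring peaks, and ends marked only without it, 0 in the full lists, numbered 2 there and 2 with a score of at least 43. Regions called only with daunorubicin (44) numbered 20 with that score, 15 with equal numbers of peaks and 73 when 50% of each peak had to overlap. Regions called only without it (10) numbered 6, 21 and 36 under the same settings, and 6 when peaks within 1 kb counted as shared. With equal numbers of peaks the order of these regions was thus turned. So was that of genes with a gene-body peak, 55 and 46 in the full lists but 44 with daunorubicin and 46 without it there. The cause of these moves was not tested, except that stricter scores and equal numbers keep fewer peaks by construction. Leaving out the 4 hyphenated symbols, an alternative chosen after seeing the data, gave 176 and 163 marked genes. No paired analysis was possible because each condition had 1 H3K27ac library. Without replicates or read depth, no difference between the libraries can be told apart from differences in depth or enrichment.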

Other observations

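ZNF genes of other chromosomes were also often marked where CpG was scarce. In the lowest tertile of the CpG ratio, the start was marked at 23 of 40 of them with daunorubicin (57.5%, 42.2 to 71.5) and at 22 without it (55%, 39.8 to 69.3), beside 26% and 22% of genes with no ZNF symbol. An end was marked only with daunorubicin at 7 of these 267 genes and only without it at 1.

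The shares of promoters with other words also varied between clusters. CCGGAAGT, a core bound by ETS factors, was present on either strand in 26 of 55 promoters of cluster 9 in 6 of 25 of cluster 6 and in none of the 29 of cluster 4, and in 6.15% of all promoters. GGGCGG, the GC box, was in 23 of 24 promoters of cluster 3, 28 of 34 of cluster 8 and 7 of 25 of cluster 6, and in 58.3% of all. TATAAA was in 5 of the 219 ZNF promoters (2.28%) and in 9.75% of all. These words are descriptions of the sequence, and their relation to the marking was not tested.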
